A study of Homo sapiens with 66 samples.

Results

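The transcriptome after 8 h of TPR loss was read from 6 of the 66 RNA-seq libraries of the series, the 3 libraries labelled auxin 8 h (replicates old1, old2 and old3) and the 3 untreated libraries with the same replicate labels. All 6 came from AID-TPR cells, a line made in DLD-1, a human colorectal cancer cell line, in which both copies of TPR encode the protein fused to an auxin-inducible degron (AID) and the fluorescent protein NeonGreen. The untreated cells carry the same fusion, together with the plant ubiquitin ligase subunit TIR1 inserted at the RCC1 locus, so the groups differ by auxin (1 mM) alone. The tagged lines were picked as clones, so the values describe the clone sampled. The 3 libraries with 2 h of auxin that carry the old labels were used for the time comparison, and the libraries of NUP153-AID and RANGAP1-AID cells after 8 h of auxin, each set against untreated cells of its own line, for the comparison with other losses. Parental DLD-1 cells, untreated or given auxin for 2 h, served to set aside genes that change with auxin and no degron. That set has no libraries with 8 h of auxin.

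TPR is a large coiled-coil protein that forms the filaments of the nuclear basket, the structure on the nuclear face of the nuclear pore complex. NUP153 and NUP50 are the other proteins of this face of the pore, and the basket is a docking place for TREX-2. This complex is built on GANP (encoded by MCM3AP) and acts in mRNA export, as does the export receptor NXF1. RANGAP1 makes Ran hydrolyse GTP in the cytoplasm and so maintains the gradient that drives transport by importins and exportins. Auxin removes the TPR protein and leaves its gene in place, so RNA does not check the loss. TPR mRNA was at 206, 174 and 128 normalised CPM (read counts scaled to a fixed library total) untreated and at 235, 185 and 198 after 8 h, and the values overlapped (log2 fold change 0.29 ± 0.17 SE, edgeR adjusted p = 0.32).

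Reads on genes numbered 23084890 to 27916215 in the 6 libraries, and mitochondrial genes took 0.147% to 0.370% of them. Replicates differed by more than counting noise, with a chi-square per degree of freedom of 16.1 to 49.3 between replicates of the same group. Of 11 markers of colorectal epithelium, 9 were above 1 CPM in all 6 libraries and CDX1 and LGALS4 were below 1 CPM. The summed level of these markers was 12500 to 14400 CPM untreated and 14400 to 16100 after 8 h. Markers of fibroblasts summed to 0.482 to 1.58 CPM, with DCN and LUM at 0, and those of leukocytes to 1.37 to 2.39, with 1 of 6 above 1 CPM (CD14). Markers of endothelium summed to 7.8 to 12.8 CPM, nearly all of it VWF, with KDR at 0, and those of neurons to 26.1 to 47.9, nearly all of it MAP2, with SNAP25 at 0.

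The library labelled auxin 8 h old2 stood apart from the other 8 h libraries. Over the 1000 most variable genes its level correlated with that of the 2 h libraries old1 and old3 at Pearson r = 0.959 and 0.98, and with that of the 8 h libraries old1 and old3 at r = 0.871 and 0.909. The library labelled auxin 2 h old2 showed the mirror image, with r = 0.964 and 0.985 to the 8 h libraries and r = 0.905 and 0.915 to the other 2 h libraries. These are correlations across genes, which are not independent replicates. On the first principal component, which held 67.1% of the variance, the 8 h libraries old1 and old3 lay at 24.1 and 18.3 and old2 at -3.5, between the 2 h libraries old1 and old3 (-0.567 and -6.6), while 2 h old2 lay at 21.8. The labels were kept as deposited, whether these labels were exchanged was not tested, and counts of called list members are given with all libraries and without the 8 h library old2.

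**Figure D1:**
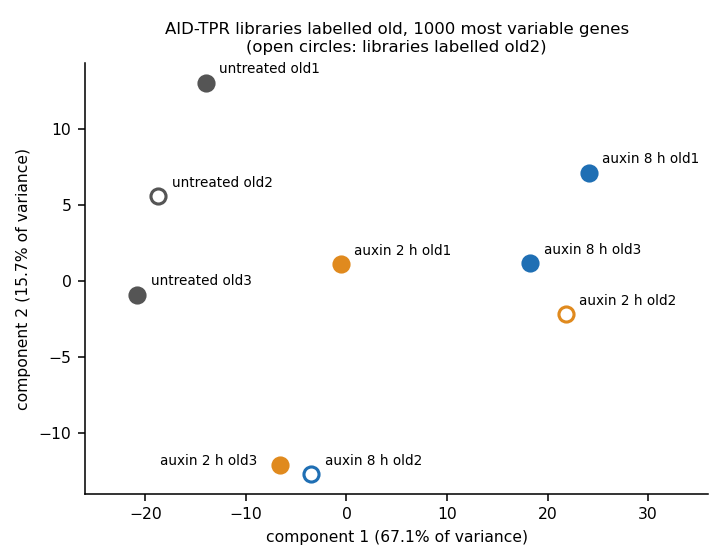
Principal components 1 and 2 (67.1% and 15.7% of the variance) of log2 CPM over the 1000 most variable genes in the 9 AID-TPR libraries with the old labels, coloured by group, with the libraries labelled old2 as open circles. The untreated libraries sit at the left (-14 to -20.8 on component 1), the 8 h old2 library lies among the 2 h libraries at -3.5, and the 2 h old2 library lies among the 8 h libraries at 21.8.

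After 8 h of TPR loss 7 of 14 immediate early genes, 6 of 15 EGFR ligands and MAP kinase feedback genes and 6 of 13 YAP/TEAD targets were called higher, and 4 of 13 posterior HOX genes and 2 of 9 frizzled receptors were called lower. A gene was called when edgeR's quasi-likelihood test gave an adjusted p under 0.05 and the level rose to at least 1.3 times or fell to at most 0.7 times that of untreated cells. Of 16769 genes tested, 709 were called, 255 higher (1.52% of all genes tested) and 454 lower (2.71%). In all 255 genes called higher and all 454 called lower, the 8 h and untreated values did not overlap. The genes called lower had a median log2 fold change of -1.08 and those called higher 0.70. Of the genes called lower 274 (60.4%) fell by more than 2-fold, and of those called higher 62 (24.3%) rose by more. These sizes cover called genes alone, with log2 bounds of 0.38 for rises and -0.51 for falls. The genes called lower also had fewer reads (median mean count 342.4 against 1859.5), so the sizes are not directly comparable. Without the 8 h library old2, 3805 of 16745 genes were called, 1678 higher (10.0%) and 2127 lower (12.7%). These included all 255 genes called higher and 453 of the 454 called lower with all libraries, and none was called in the opposite direction. The fits share every library but old2, so this overlap is no independent check. Old2 was left out for its levels in these same data, so the larger count depends on that choice. Counts of list members with all libraries are to be read beside the shares of 1.52% and 2.71%. Those without old2 are to be read beside 10.0% and 12.7%. The count rested on each library: it was 132 without 8 h old1, 19 without 8 h old3, and 31, 11 and 106 without untreated old1, old2 and old3. With library sizes alone in place of TMM scaling the median of all genes moved to -0.13, and 133 genes were called higher and 1010 lower.

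The immediate early genes, which growth factors and stress switch on without new protein synthesis, had the highest median of the gene lists. Of 14 in the list, 7 were called higher (FOS, EGR1, EGR2, IER3, JUNB, DUSP1 and MYC) and none lower, with a median log2 fold change of 1.24 where that of all genes was near 0. Without the 8 h library old2, 11 of the 14 were called higher. FOS, an AP-1 subunit (chr14:75278826-75282230, plus strand), was at 4.48, 4.42 and 3.9 CPM untreated and at 26.5, 36.6 and 28.9 after 8 h. No 8 h library came near the untreated range (log2 fold change 2.85 ± 0.19 SE, edgeR adjusted p = 0.000245). EGR1, a zinc finger activator (chr5:138465479-138469303, plus strand), rose from 32.3, 34.5 and 51.3 CPM to 137, 326 and 170.3 (2.43 ± 0.32, edgeR adjusted p = 0.00942). IER3, which limits cell death (chr6:30743199-30744548, minus strand), rose from 7.82, 8.59 and 7.49 CPM to 25.4, 51.9 and 27.2, and the antisense gene IER3-AS1 overlaps it. For FOS, EGR1 and IER3 the old2 library was the highest of the 8 h libraries, and without it the log2 fold changes were 2.69, 1.96 and 1.72. JUNB, an AP-1 partner of FOS, showed the reverse, at 91.9, 108 and 134 CPM untreated and 317, 159 and 434 after 8 h, with old2 lowest (1.45 ± 0.30, and 1.75 without it). FOSB, FOSL1, EGR3, JUN, IER2, ATF3 and ZFP36 did not pass the test with all libraries, although their log2 fold changes were above 0, from 0.38 for IER2 to 1.87 for FOSB. Of 12 IER, ZFP36 and BTG/TOB genes, which overlap this list, IER3 was the only call (median -0.24), and 2 were called higher and 5 lower without old2.

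The start of EGR1 shows the sequence best known for this group, the CArG box, to which serum response factor binds. RefSeq promoters (GRCh38.p14, 250 bases before to 50 after the gene's start) were found for 10 of the 14 genes, and EGR1 alone held the box, on either strand. It held the box at 2 places, 105 and 83 bases before its start, given as windows of the plus strand with the box in capitals.
EGR1, chr5:138465366-138465391: cggtcctgCCATATTAGGgcttcctg
EGR1, chr5:138465388-138465413: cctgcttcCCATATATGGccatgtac
The box was present in 351 of 27305 promoters (1.29%) and in 113 of the 11289 found for genes tested (1.0%). It was in 3 of the 202 promoters found for genes called higher (1.49%) and in 3 of the 326 found for genes called lower (0.92%). The share among the genes that rose rests on 3 promoters, and the EGR1 windows are shown as a description of that gene.

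Of 15 ligands of the EGF receptor and feedback genes of the MAP kinase pathway, 6 were called higher and none lower, with a median log2 fold change of 0.56 (8 higher and none lower without old2, median 0.69). HBEGF, a membrane-bound EGFR ligand (chr5:140332843-140346603, minus strand), was at 9.61, 7.55 and 6.35 CPM untreated and at 39.5, 34.4 and 28.5 after 8 h, where old2 lay between the other libraries (2.13 ± 0.20, edgeR adjusted p = 0.00301). AREG, amphiregulin (chr4:74445136-74455005, plus strand), rose from 107, 105 and 100.1 CPM to 350.1, 346 and 312, the tightest of these responses (1.70 ± 0.10, edgeR adjusted p = 0.000171). EREG, epiregulin, rose from 469, 490.4 and 436 CPM to 852, 1402 and 729 (1.10 ± 0.21). Phosphatases that switch off ERK were among the genes called. DUSP6 went from 97.5, 114 and 107 CPM to 264, 467 and 276 (1.67 ± 0.21), and DUSP5, its nuclear counterpart, from 55.3, 43.8 and 50.7 to 128, 84.4 and 128 (1.18 ± 0.17). The old2 library was highest for EREG and DUSP6 and lowest for DUSP5.

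Among targets of YAP and TEAD, the effectors of the Hippo pathway, 6 of 13 tested were called higher and none lower (median 0.29), and the same counts held without old2. ANKRD1, a cardiac ankyrin repeat protein widely used as a YAP readout (chr10:90912096-90921087, minus strand), was at 1.75, 0.991 and 1.28 CPM untreated and at 15.6, 2.44 and 7.78 after 8 h. CCN2, connective tissue growth factor (chr6:131948176-131951372, minus strand, overlapped by LINC01013 on the other strand), was at 1.22, 0.537 and 1.14 CPM and then at 10.5, 2.48 and 4.48. Both rose in every 8 h library, and in both old2 was the lowest, so that the log2 fold changes of 2.67 ± 0.57 and 2.57 ± 0.52 (edgeR adjusted p = 0.0368 and 0.033) became 3.11 ± 0.32 and 2.92 ± 0.39 without it. CCN1, the close relative of CCN2, rose from 7.03, 7.1 and 9.87 CPM to 27.9, 22 and 18.2 (1.5 ± 0.22). LATS2, the kinase that restrains YAP, rose from 34.3, 35.2 and 43.9 CPM to 93.6, 52.6 and 82.9 (1.01 ± 0.20).

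TEAD factors bind the letters GGAATG, or CATTCC on the other strand. Promoters were found in RefSeq for 11 of the 14 genes of the list and 5 of the 11 held these letters. They were in 3836 of 27305 promoters in all (14.05%) and in 1245 of the 11289 found for genes tested (11.03%). The genes called higher held them in 24 of 202 promoters (11.88%) and those called lower in 36 of 326 (11.04%). The windows of the most strongly induced genes are shown on the strand of the gene, with the motif in capitals; the last pair of CCN2 windows overlap.
CCN2, chr6:131951528-131951549: cagacggaGGAATGctgagtgt
CCN2, chr6:131951463-131951484: ggtggggaGGAATGcgaggaat
CCN2, chr6:131951454-131951475: gaatgcgaGGAATGtccctgtt
ANKRD1, chr10:90921294-90921315: ccaccaaaGGAATGgccctctc
ANKRD1, chr10:90921202-90921223: ctgagtctGGAATGaaaattca
The CCN2 motifs began 169, 104 and 95 bases before its start and the ANKRD1 motifs 220 and 128 bases before. A match of 6 letters is a description of the window and not a binding site.

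Feedback genes of TGF-beta and BMP signalling showed 4 calls higher and 1 lower among 12 tested (median 0.47), and 7 and 2 without old2. ID1 and ID2, dominant-negative partners of helix-loop-helix factors, and SMAD7, the inhibitory SMAD, rose by a log2 fold change of 0.70 to 0.80. GDF15, a stress-induced secreted factor of the TGF-beta family (chr19:18374731-18389176, plus strand), was at 225, 199.5 and 203 CPM untreated and at 881, 1047 and 882 after 8 h, with little spread in either group (2.17 ± 0.12, edgeR adjusted p = 0.000114). It was 1 of 2 genes called among 22 of the integrated stress response, none of them lower, the other being SLC7A11, the cystine transporter (0.60 ± 0.14). Without old2 4 of the 22 were called higher and 4 lower (ATF4, ATF5, CHAC1 and CEBPG), so that list did not move in one direction.

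Further genes with large rises were ADGRF1, an adhesion G protein-coupled receptor (4.37, 3.26 and 3.28 CPM untreated, 30.2, 11.8 and 18.7 after 8 h, log2 fold change 2.47 ± 0.33), and ANGPTL4, which inhibits lipoprotein lipase (1.82, 1.44 and 1.52 against 11, 2.24 and 8.35, 2.17 ± 0.48). NR1D1, the REV-ERB repressor of the circadian clock, rose from 9.27, 9.99 and 11.4 CPM to 44.5, 15.6 and 41 (1.72 ± 0.33), and it overlaps THRA on the opposite strand. For all 3 the old2 library was the lowest at 8 h, and without it the values were 2.74, 2.59 and 2.06. SLC2A1, the glucose transporter GLUT1, rose from 331, 297 and 355 CPM to 877, 805 and 828 (1.35 ± 0.10, edgeR adjusted p = 0.000608), and with PFKFB3, which makes the activator of phosphofructokinase, it was 1 of 2 genes called among 14 of the hypoxia response (6 higher and 1 lower without old2). KLF10 rose from 45.1, 49.6 and 49.8 CPM to 144, 141 and 134 (1.54 ± 0.11), and KLF4 by 0.74 ± 0.12, as the genes called among 13 KLF transcription factors (5 higher and 2 lower without old2). Of 16 NRF2 targets NQO1 and SLC7A11 were called higher and none lower, and 7 were called higher without old2, HMOX1 among them (13.3, 10.9 and 11.4 CPM untreated, 34, 8.54 and 31.1 after 8 h), named here after its values were seen. No NF-kappaB target of 14 was called with all libraries, and 5 were called higher without old2, with NFKBIA, the inhibitor of NF-kappaB, at 0.92 ± 0.26 (edgeR adjusted p = 0.0732) and at 1.21 ± 0.12 without it.

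**Figure D2:**
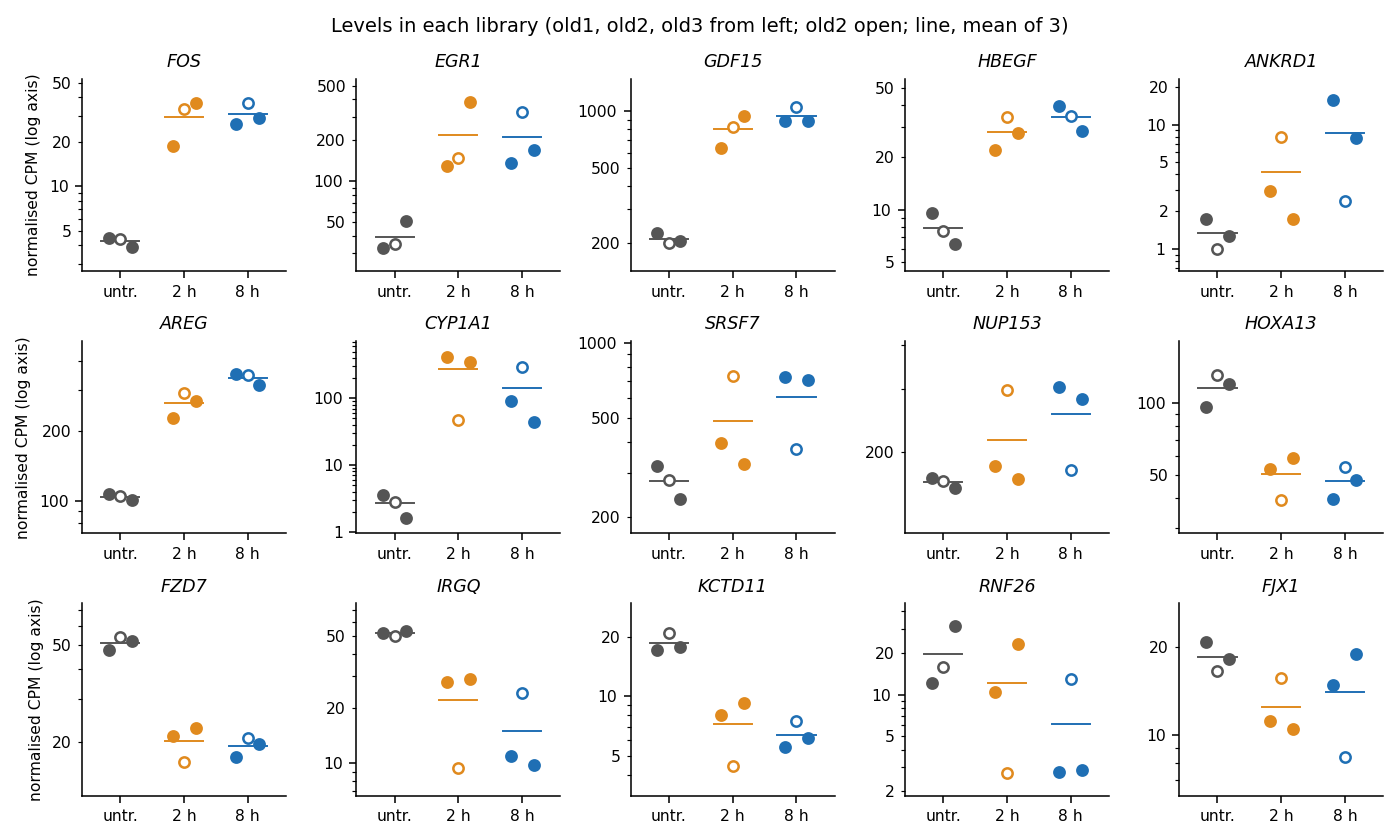
Normalised CPM on log axes for 15 genes in the 9 AID-TPR libraries with the old labels, by group (untreated, auxin 2 h, auxin 8 h), with replicates old1, old2 and old3 from left to right, old2 as an open circle and a line at the mean of 3. FOS, GDF15 and HBEGF sit above the untreated range in all auxin libraries, while the open circles of SRSF7, NUP153, IRGQ and RNF26 lie with the libraries of the other time.

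The genes that fell had fewer exons than those that rose. The canonical transcripts of the 454 genes called lower had a median of 3 exons and a GC content of 56.3%, against 9 exons and 40.7% for the 255 called higher and 7 exons and 48.9% over all genes tested. Genes of up to 4 exons made up 64.14% of the genes called lower, 15.08% of those called higher and 34.4% of all genes tested. Intronless genes made up 18.71%, 3.17% and 10.53%. Over all 1749 intronless genes tested, noncoding and low ones included, the median log2 fold change was 0.03 (0.11 without old2), and 84 were called lower (4.8%) and 8 higher. Among protein-coding genes averaging 50 counts or more, 63 of the 222 with 1 exon were called lower (28.38%) and 1 higher, with a median log2 fold change of -0.72. Of the 437 with 2 exons, 68 were called lower (15.56%) and 6 higher (median -0.52). Of the 3549 with 5 to 9 exons, 69 were called lower and 92 higher (median 0.07). The shift was present in each auxin library: the median level of the 1-exon genes differed from the untreated mean by -0.70, -0.49 and -0.62 (log2) in the 8 h libraries old1, old2 and old3. In NUP153-AID cells given auxin for 8 h the same genes moved by a median of 0.05 (log2), and in RANGAP1-AID cells by -0.13, each against untreated cells of that line. At other times of auxin the median was -0.56 in AID-GANP cells (3 h), -0.19 in AID-NXF1 cells (2 h) and -0.01 in NUP50-AID cells (9 h), and it was -0.3 in the AID-TPR libraries with other replicate labels (2 h). The AID-GANP, AID-NXF1 and other AID-TPR libraries had no mitochondrial reads, unlike the old libraries. Whether these sets were counted in the same way was not tested. The median transcript was 3032 bases long for genes called lower, 3590 for those called higher and 2704 for all genes tested, so the genes called lower did not have shorter transcripts than all genes tested. The parts of exon number and GC content were not tested separately.

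**Figure D3:**
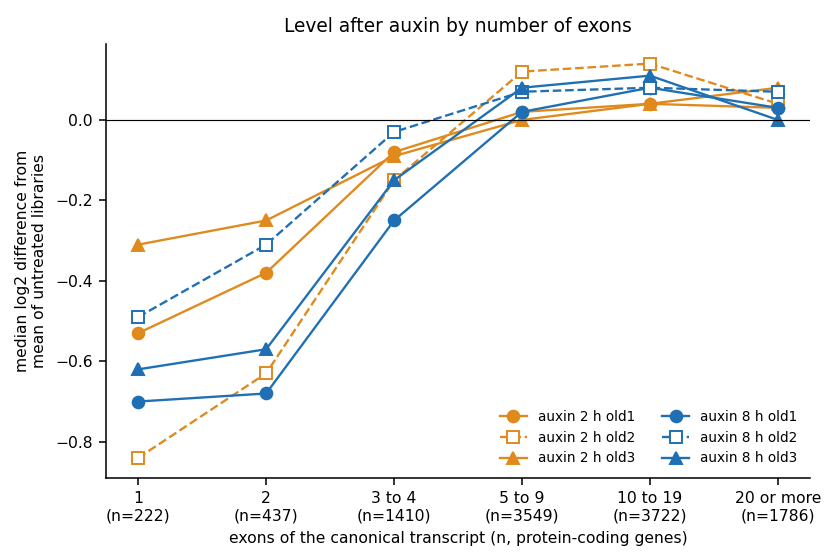
Median log2 difference of each auxin library from the mean of the untreated libraries for protein-coding genes averaging 50 counts or more, grouped by the exons of the canonical transcript (number of genes under each group), with 8 h and 2 h libraries in different colours and old2 as open symbols on dashed lines. Genes of 1 and 2 exons lie below 0 in all 6 auxin libraries, from -0.25 to -0.84, and genes of 5 or more exons lie near 0.

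Of 9 frizzled receptors tested, which bind Wnt ligands, 2 intronless members were called lower (2.71% of all genes were) and none higher, with a median of -0.47. FZD7 (chr2:202033855-202038441, plus strand) fell from 47.8, 54 and 52 CPM to 17.3, 20.8 and 19.6 (-1.41 ± 0.13, edgeR adjusted p = 0.00301), and FZD2 (chr17:44557484-44561262, plus strand) from 4.94, 5.74 and 8.97 to 1.24, 2.44 and 1.48 (-1.92 ± 0.33). In both, as in all genes called lower, the groups did not overlap, and the old2 library was the highest of the 8 h group. Without old2, FZD1, FZD2, FZD5, FZD7 and FZD8 were called lower and FZD4 higher. ASCL2, a Wnt target and stem cell factor of the intestinal crypt (chr11:2268498-2270588, minus strand), fell from 155, 154 and 196 CPM to 33.5, 74.9 and 59.3 (-1.58 ± 0.25, edgeR adjusted p = 0.0177). PYGO2, a coactivator of beta-catenin, fell from 60.3, 56.9 and 53.9 CPM to 17.1, 24.1 and 13.7 (-1.64 ± 0.20), and it overlaps SHC1 on the same strand. The 18 Wnt target genes tested held 1 call lower (ASCL2) and 1 higher (MYC), so the list as a whole had no direction, with a median of 0.02 that was -0.11 under library sizes alone (5 higher and 3 lower without old2).

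Posterior HOX genes, which give positional identity along the gut, held 4 calls lower and none higher of 13 tested (median -0.84), and 6 and none without old2 (-0.98). The called genes lie together on chromosome 7 within 27170605 to 27207259. HOXA13 was at 96.2, 132 and 120.0 CPM untreated and at 39.6, 53.9 and 47.5 after 8 h (-1.30 ± 0.16, edgeR adjusted p = 0.0088). HOTTIP, the noncoding RNA that overlaps HOXA13 on the other strand, fell from 29.2, 35.3 and 35.3 CPM to 15.8, 20.2 and 14.2 (-0.98 ± 0.17). HOXA10 and HOXA11 fell by a log2 fold change of 0.84 and 0.68 in size. The strand setting of the counting is not given in the sources used here, so reads of HOXA13 and HOTTIP, and of HOXA10 and HOXA9 which overlap, cannot be told apart with certainty. The clusters differed in the old2 library: HOXB9 and HOXB13 (named after their values were seen) were at 71.5 and 8.5 CPM in it, against 30 and 34, and 3.15 and 4.44, in old1 and old3, and were called only without it. Among forkhead genes FOXD1 fell (22.1, 22 and 35.9 CPM to 5.81, 11.7 and 9.99, -1.54 ± 0.29) and FOXN2 rose (0.87 ± 0.14), of 16 tested (2 higher and 6 lower without old2). Of 14 Notch pathway genes LFNG, the glycosyltransferase that modifies Notch, fell (17.8, 22.2 and 22.6 CPM to 9.04, 9.18 and 11.6, -1.07 ± 0.17) and HES1, the Notch target repressor, rose (0.83 ± 0.19), and 2 were called in each direction without old2. SOX12 was the only gene called of 9 SOX and C/EBP genes (-1.07 ± 0.21), where 1 was called higher and 3 lower without old2.

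Protein-coding genes with symbols that begin with ZNF, ZBTB, ZSCAN, ZKSCAN or KLF, most of which encode DNA-binding zinc finger factors, held 38 calls lower and 7 higher of 447 tested, with a median of -0.12. Over all genes 2.71% were called lower and 1.52% higher. Without old2 these zinc finger genes held 103 and 48 of 445, where 12.7% of all genes were called lower and 10.0% higher. ZNF552 fell from 14.2, 12.8 and 12.7 CPM to 4.27, 3.25 and 4.14 (-1.77 ± 0.18, edgeR adjusted p = 0.00359), ZNF488 from 6, 3.8 and 4.66 to 1.29, 1.44 and 1.37 (-1.82 ± 0.25) and ZNF70 from 8.28, 8.92 and 9.87 to 2.28, 4.05 and 2.81 (-1.56 ± 0.24). In each, as in all genes called lower, the highest 8 h value was below the lowest untreated value. Of 16 KCTD genes, many of which encode substrate adaptors of cullin ubiquitin ligases, 2 were called lower and 1 higher (median -0.16), and 4 and 3 without old2. KCTD7 went from 4.37, 4.91 and 3.8 CPM to 1.16, 1.12 and 0.911 (-2.02 ± 0.23, edgeR adjusted p = 0.00701). It was at 44.9, 47.2 and 41.4 CPM in untreated RANGAP1-AID cells and at 37.9, 37.4 and 36.1 in untreated DLD-1 cells. Whether its reads were counted alike in these sets was not tested. Its log2 fold change was -0.05 in the AID-TPR libraries with other replicate labels (2 h), -0.21 in AID-NXF1 cells and -0.09 in AID-GANP cells. The intronless KCTD11 went from 17.1, 21 and 17.8 CPM to 5.52, 7.45 and 6.11 (-1.54 ± 0.18), while KCTD9, with 12 exons, rose (0.61 ± 0.13). KBTBD7 and KLHL9, both intronless, were the calls among 16 other BTB and F-box adaptors (-0.94 ± 0.17 and -0.83 ± 0.19), where 5 were called lower and none higher without old2.

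Among genes averaging 50 counts or more whose groups did not overlap, the 12 largest falls were those of BEND3P1, KCTD7, FZD2, CLDN9, KLHDC7A, WDCP, ZNF488, IRGQ, ZNF552, PGGHG, SP6 and PYGO2, from -2.28 to -1.64, and all of these but PGGHG have 4 exons or fewer. BEND3P1 (5.81, 5.78 and 5.18 CPM untreated, 1.33, 1.2 and 0.911 after 8 h) is a pseudogene of BEND3, and reads of the near-identical parent may be counted on it. WDCP fell from 37.7, 38.9 and 32.3 CPM to 10.9, 11.5 and 8.24 (-1.82 ± 0.17, edgeR adjusted p = 0.00301), and it overlaps MFSD2B. IRGQ, a member of the immunity-related GTPases, was at 52.2, 49.9 and 53.3 CPM untreated and at 11, 24.2 and 9.84 after 8 h. Its value in old2 was more than that of either other 8 h library, and the log2 fold change of -1.78 ± 0.31 became -2.32 ± 0.14 without it. PGGHG, an enzyme that trims sugars from collagen, fell from 127, 139 and 90.2 CPM to 25.7, 49.6 and 32.9 (-1.71 ± 0.25). FJX1, an intronless gene for a secreted regulator of cell polarity, was at 20.8, 16.6 and 18.1 CPM untreated and at 14.8, 8.42 and 19 after 8 h, and its groups overlapped (-0.40 ± 0.26, edgeR adjusted p = 0.37). In the 2 h libraries it was at 11.2, 15.7 and 10.5 CPM.

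Of 13 SR protein and TRA2 genes, which regulate splicing, SRSF7, TRA2B and SRSF10 were among 4 called higher and SRSF5 was called lower (4 and 2 without old2). SRSF7 was at 319, 281 and 236 CPM untreated and at 729, 376 and 706 after 8 h (1.11 ± 0.22, edgeR adjusted p = 0.0318, and 1.36 ± 0.13 without old2). SRSF5 was at 205, 221 and 191 CPM and then at 89.9, 155 and 97.4 (-0.85 ± 0.19, and -1.14 ± 0.11 without old2). Both genes make isoforms with poison exons that feed back on their own level, and gene counts do not separate these. PNISR, another splicing-associated gene, was the call among 20 CLK kinases and genes with detained introns (-0.64 ± 0.12), and 3 were called in each direction without old2.

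NUP58, a subunit of the central channel, was the only call among 33 nucleoporin genes, where 1.52% of all genes were called higher (207, 227 and 204 CPM untreated, 381, 283 and 346 after 8 h, 0.66 ± 0.12, edgeR adjusted p = 0.025), with a list median of 0.10 that was -0.03 under library sizes alone. NUP153, the basket anchor, was at 169, 166 and 159 CPM untreated and at 305, 179 and 282 after 8 h. With all libraries it did not pass (0.63 ± 0.17, edgeR adjusted p = 0.0668), and without old2 it rose by 0.83 ± 0.10 (edgeR adjusted p = 0.000504). Without old2 6 nucleoporin genes were called higher and none lower (NUP153, NUP35, NUP37, NUP54, NUP58 and AHCTF1). NUP50 (-0.07 ± 0.09), RANGAP1 (-0.07 ± 0.11), NXF1 (0.15 ± 0.12), MCM3AP (0.12 ± 0.11), PCID2 (0.10 ± 0.13) and ENY2 (0.17 ± 0.12), which encode the partner proteins studied in the series, did not pass the test. Of 14 THO/TREX genes FYTTD1, an adaptor of NXF1, was called higher (0.49 ± 0.11), and 4 were without old2. No gene of 9 for TREX-2 and NXF1-NXT nor of 27 for the Ran cycle, importins and exportins was called with all libraries. Without old2 1 and 3 of these were called higher, shares near the 10.0% of all genes.

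No call was made with all libraries among 82 cytosolic ribosomal protein genes, 13 mitochondrially encoded protein genes, 20 mitotic genes, 13 DNA replication genes, 52 replication-dependent histone genes, 21 small nucleolar RNA host genes, 14 heat shock protein genes and 21 genes of cholesterol synthesis. Over all genes 1.52% were called higher and 2.71% lower, so the absence of calls in the shorter lists is near those shares. The medians of these lists lay between -0.05 and 0.21. Those of the histone and small nucleolar RNA host genes changed sign under library sizes alone (0.06 to -0.07 and 0.12 to -0.01). RPLP0, of the large ribosomal subunit, had a log2 fold change of 0.22 ± 0.09, TOP2A, topoisomerase 2 of dividing cells, 0.20 ± 0.10 and HSPA8, the constitutive HSP70, 0.35 ± 0.15. Without old2, 5 of the 21 cholesterol genes were called lower and none higher (median -0.47), where 12.7% of all genes were called lower. In the same fit 5 of 20 mitotic genes (median 0.25), 3 of 21 small nucleolar RNA host genes, 2 of 14 heat shock, 2 of 13 DNA replication, 1 of 13 mitochondrially encoded and 1 of 82 ribosomal protein genes were called higher and none lower, and 1 histone gene was called in each direction. Of 18 p53 targets FAS was called higher (0.79 ± 0.19) and XPC lower (-0.77 ± 0.19), of 11 polyadenylated histone variants H1-10 was called lower (-0.98 ± 0.21) and of 15 nuclear long noncoding RNAs LINC00511 was called higher (0.67 ± 0.16). Without old2 these 3 lists held 5 calls higher and 2 lower, 0 and 2, and 2 and 2.

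**Figure D4:**
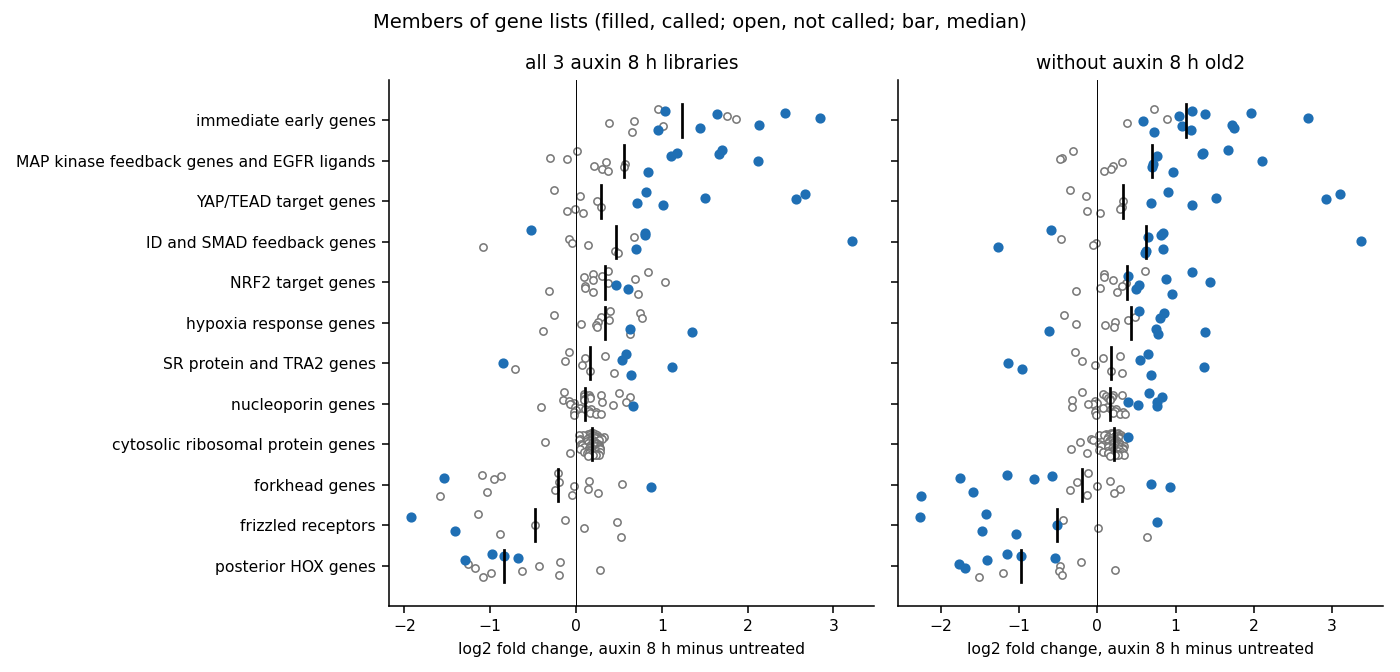
Log2 fold change (auxin 8 h minus untreated) of each tested member of 12 gene lists, with all libraries at left and without the 8 h library old2 at right, as filled points for called genes, open points for others and a bar at the list's median. Immediate early genes lie furthest to the right (median 1.24), posterior HOX genes furthest to the left (median -0.84), and more points are filled at right, where 3805 genes were called instead of 709.

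The 8 h libraries were compared directly with the 2 h libraries of the same labels. As labelled, no gene of 16781 was called by edgeR's quasi-likelihood test (48 had an unadjusted p under 0.05) and none by DESeq2. With both old2 libraries left out, 887 of 16720 genes were called, 312 higher at 8 h (1.87%) and 575 lower (3.44%), from 2 libraries in each group. Leaving out any 1 library alone, either old2 included, gave 0 calls. The old2 libraries were left out because their levels resembled those of the other time. The calls and adjusted p-values of this fit depend on that choice. Among the genes with the largest differences in this fit, each old2 library lay with the libraries of the other time. AREG did not show this, at 350.1, 346 and 312 CPM in the 8 h libraries old1, old2 and old3 and at 227, 291 and 269 at 2 h. IL16, an interleukin that attracts CD4+ cells, was at 6.22 and 4.29 CPM in the 8 h libraries old1 and old3 and at 0.361 in old2, and at 0.474 and 0.311 in the 2 h libraries old1 and old3 and at 4.86 in old2 (log2 difference 3.73 ± 0.35 without old2, edgeR adjusted p = 0.00257). IL20RB, a receptor subunit for IL-20 family cytokines, was higher at 8 h in the same way (1.90 ± 0.28), as was ANKRD1 (2.33 ± 0.36). SAMD11 (1.85 ± 0.35) and FBXW10 (1.89 ± 0.39), which has close copies that share reads, followed. RNF26, an intronless gene for a ubiquitin ligase of the endoplasmic reticulum, was at 2.74, 12.9 and 2.85 CPM at 8 h and at 10.4, 2.73 and 23.1 at 2 h (-2.59 ± 0.34 without old2). GPRIN2 (-2.33 ± 0.24) and TMEM187 (-2.37 ± 0.31) showed the same arrangement, and the pseudogene NCAPD2P1 (-3.08 ± 0.47) may share reads with its parent. JUNB, MYC, SRSF7, NUP153 and DUSP5 were also higher at 8 h without old2, by a log2 difference of 0.73 to 1.51. FOS (-0.01 ± 0.26), GDF15 (0.16 ± 0.18) and HBEGF (0.44 ± 0.19) did not pass.

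Of 10 genes of the aryl hydrocarbon receptor (AhR) pathway none was called between the times as labelled, and 4 were called lower at 8 h and none higher with both old2 libraries left out. CYP1A1, a cytochrome P450 that the receptor switches on, was at 3.53, 2.81 and 1.62 CPM untreated, at 417, 47.8 and 344 after 2 h and at 91.9, 289.9 and 43.4 after 8 h. All auxin libraries were far above the untreated range, and with both old2 libraries left out the 8 h level was below the 2 h level (-2.50 ± 0.29, edgeR adjusted p = 0.00406). TIPARP, a feedback inhibitor of the receptor, was at 55, 56.7 and 52.9 CPM untreated, at 421, 150.0 and 457 after 2 h and at 205, 507 and 142 after 8 h (-1.34 ± 0.18 between the times). CYP1B1, which overlaps CYP1B1-AS1, showed the same order (-1.81 ± 0.22). These 3 genes are among 10 that were called in parental DLD-1 cells after 2 h of auxin, which acts there with no degron. The 10 were not counted as calls of 8 h against untreated cells. Between the times they were kept, and these 3 were called lower at 8 h there. Of the 10, CYP1A1, TIPARP, PPP1R15A and OTUB2 would otherwise have been called after 8 h, for 713 genes in place of 709. In DLD-1 cells the libraries labelled auxin were the lower ones, with CYP1A1 at 201, 181 and 169 CPM in the libraries labelled untreated and at 14.5, 14.2 and 9.54 in those labelled auxin (-3.84, edgeR adjusted p = 8.2e-07). The direction was thus opposite to that in AID-TPR cells, and whether it reflects the DLD-1 labels was not tested. Of the other AhR genes, NQO1 (0.47 ± 0.11) and ALDH3A1 (0.70 ± 0.13) were called higher after 8 h, and 4 of the 10 were called higher without old2.

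The response to TPR loss was set against that to 8 h of NUP153 loss by an interaction term, the auxin effect in AID-TPR cells minus that in NUP153-AID cells, over 12 libraries. The effects differed in 1871 of 16880 genes at an edgeR adjusted p under 0.05 (11.1%), of which 932 had the higher response in AID-TPR cells and 939 the lower. Without the 8 h AID-TPR library old2 they differed in 4178 genes (24.8%), and under library sizes alone in 2054, 327 higher and 1727 lower. The count fell by more than 1.5 times without AID-TPR 8 h old1 (1090), old3 (954) or untreated old2 (1195) and without any NUP153-AID library (718 to 1182). GDF15 rose after TPR loss and fell after NUP153 loss, where it was at 299, 218 and 444 CPM untreated and at 131, 119 and 111 with auxin (difference 3.60 ± 0.27, edgeR adjusted p = 3.42e-05). ANKRD1, CCN2 and IER3 differed by 3.62 ± 0.68, 3.35 ± 0.64 and 3.16 ± 0.38, with log2 fold changes of -0.93, -0.76 and -1.0 after NUP153 loss. FOS rose in both lines (8.7, 5.02 and 6.32 CPM against 19.2, 21.9 and 22.8 after NUP153 loss), and still differed by 1.19 ± 0.26 (edgeR adjusted p = 0.015). On the other side HOXB5, a gene of the HOXB cluster, rose after NUP153 loss from 10.2, 8.34 and 4.76 CPM to 16.5, 40.5 and 32. After TPR loss it was at -0.59 ± 0.21 (difference -2.51 ± 0.44). HOXB3 overlaps it on the same strand and HOXB-AS3 on the other. TSPYL4, RNF26, ZNF488 and the pseudogene BEND3P1 differed by -2.30 to -2.43, with values from 0.06 to 0.90 after NUP153 loss. FZD7 (-1.21 ± 0.14), HOXA13 (-1.42 ± 0.20) and KCTD11 (-1.68 ± 0.18) were among the genes that differed.

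Against 8 h of RANGAP1 loss the effects differed in 2029 of 17770 genes (11.4%), 820 higher and 1209 lower after TPR loss, and in 4228 (23.8%) without the AID-TPR 8 h library old2. Under library sizes alone they differed in 2135, 529 higher and 1606 lower. Leaving out RANGAP1-AID auxin replicates 1, 2 or 3 or untreated replicate 2 left 1170, 1238, 1246 and 1177 genes. RMRP, a noncoding RNA, had 162311 to 264668 reads in the untreated RANGAP1-AID libraries. It was at 0 in the AID-TPR and NUP153-AID libraries used here. The sets thus differed in this gene, and whether other genes were counted in the same way was not tested. Each line was compared with its own untreated libraries. FOS had the largest positive difference among the genes named (4.20 ± 0.25, edgeR adjusted p = 1.92e-06): it fell after RANGAP1 loss, from 3.28, 3.72 and 3.75 CPM to 1.17, 1.79 and 1.29. EGR1 fell after RANGAP1 loss by 0.77 in log2 (difference 3.19 ± 0.46), CCN2 fell by 0.80 (3.37 ± 0.58), and ANKRD1 and GDF15 were at 0.01 ± 0.14 and -0.22 ± 0.13 (2.67 ± 0.65 and 2.38 ± 0.19). RASSF1, a Ras-association tumour suppressor, rose after RANGAP1 loss from 16.7, 19.8 and 16.9 CPM to 95.8, 94.2 and 102, and had a log2 fold change of -0.43 ± 0.23 after TPR loss (difference -2.88 ± 0.25). MRM1, a methyltransferase of mitochondrial ribosomal RNA, and PKDCC, a secreted tyrosine kinase, rose after RANGAP1 loss and fell after TPR loss (-3.19 ± 0.30 and -2.72 ± 0.25). TXNIP, an inhibitor of thioredoxin and of glucose uptake, rose after RANGAP1 loss by 3.60 ± 0.17 and had a value of 0.90 ± 0.40 after TPR loss, where old2 was again the low library (169, 41 and 140.4 CPM). COL4A1, a chain of basement membrane collagen, was at 0 to 0.266 CPM in RANGAP1-AID cells, so its difference of -2.54 ± 0.73 rests on counts near 0.

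**Figure D5:**
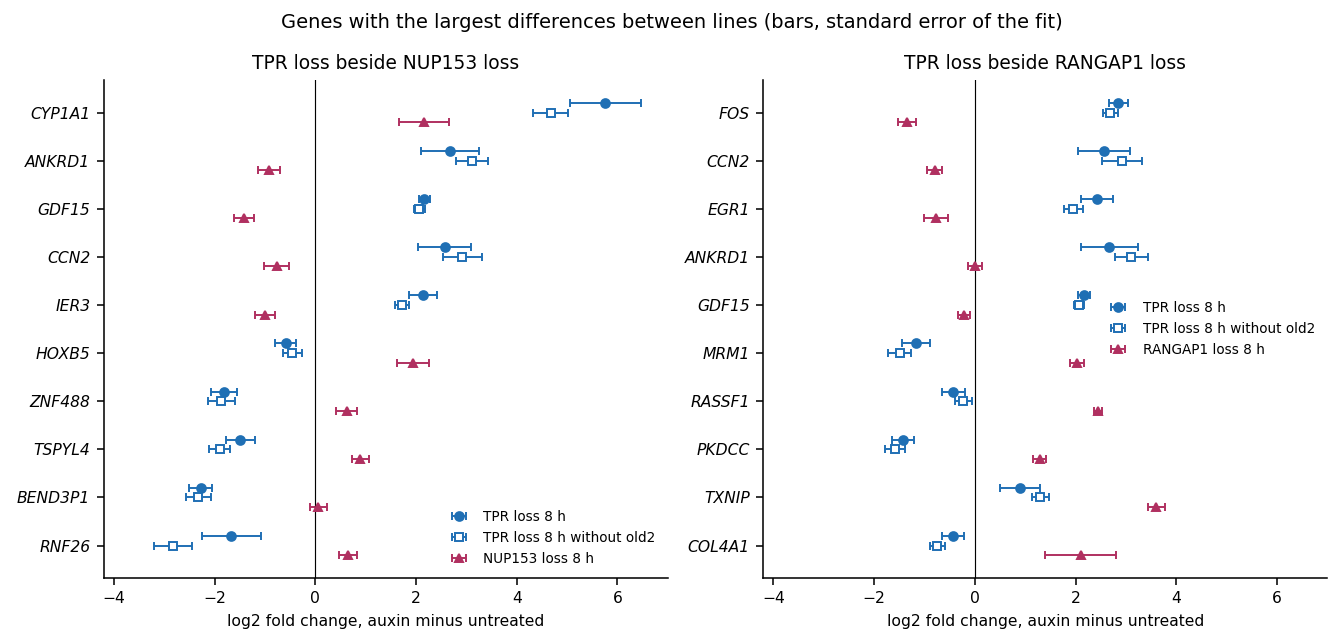
Log2 fold change (auxin minus untreated of the same line, bars of 1 standard error of the fit) of the genes with the largest differences between lines, for TPR loss with all libraries (filled circles), TPR loss without old2 (open squares) and NUP153 loss or RANGAP1 loss for 8 h (triangles). GDF15 lies at 2.17 after TPR loss and at -1.42 after NUP153 loss, and FOS lies at 2.85 after TPR loss and at -1.35 after RANGAP1 loss.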

How the data were processed

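Total RNA depleted of ribosomal RNA was sequenced. The authors mapped reads to GRCh38 (CASAVA 1.8.2, STAR 2.6.1c and featureCounts 1.5.2 in the submitters' processing notes) and deposited whole-number read counts for 58051 genes per library, without normalization. The strand setting is not given in the sources used here. Symbols, exons and coordinates came from GENCODE release 44 (56948 identifiers matched, 1103 did not). Genes above 1 CPM in more than 5% of the 60 libraries that had no Actinomycin D (17812), and with a count in the fit, were tested by edgeR 4.0.16 (limma 3.58.1, R 4.3.3) with TMM scaling, the quasi-likelihood test and Benjamini-Hochberg adjustment over all genes tested, without a replicate term. Between 23084890 and 30825071 reads per library were counted in the 9 old libraries. Normalised CPM are TMM-scaled within a line. The standard error (SE) is the size of the log2 fold change over the square root of F. Groups followed the labels, with 3 libraries each, stated as independent replicates. The labels' treatment text names shorter times, and 8 h comes from the title.

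Calls required a fold of 1.3 or 0.7. In 8 h against untreated cells they also required no call in DLD-1 cells given auxin for 2 h against untreated (10 genes). Between 8 h and 2 h these genes were kept. No DLD-1 library had 8 h of auxin, so later effects of auxin alone were not removed. Interactions passed on adjusted p alone. Alternatives were RLE, library sizes alone, DESeq2 1.42.0, other count filters, a replicate block, all 9 old libraries, other folds and each library left out. After seeing the data, these were repeated without the 8 h library old2. The test was tried on simulated counts. Named genes were the RNAs the study follows, pore, export and AhR genes, the 12 largest changes in each direction (5 in other comparisons; mean of at least 50 counts, no overlap between groups or, for interactions, between responses), up to 4 called members of each list and, where a list had none, up to 2 of its most abundant members. List members outside this rule were named after their values were seen. Members and lists were chosen with earlier results of these data known. Promoters came from RefSeq (GRCh38.p14). Python 3.11.15, pandas 2.3.3, numpy 2.4.6 and matplotlib 3.10.9 made tables and figures. The 6 Actinomycin D libraries were not used. Results on a few further genes are not reported here.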

Additional observations from a re-analysis of the deposited data

Results flagged for a closer look

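The effect of auxin differed between lines by the interaction test in 1871 genes against NUP153 loss and in 2029 genes against RANGAP1 loss, both after 8 h. The genes given are those with the largest differences among genes whose responses (each auxin library minus the untreated mean of its line, log2) did not overlap between the lines, written as the log2 response to TPR loss minus that to the other loss. Against NUP153 loss the response was higher in CYP1A1 (3.62), ANKRD1 (3.62), GDF15 (3.60), CCN2 (3.35) and IER3 (3.16). It was lower in HOXB5 (-2.51), ZNF488 (-2.43), TSPYL4 (-2.37), BEND3P1 (-2.33) and RNF26 (-2.30). CYP1A1 is among the genes called in DLD-1 cells, and its untreated NUP153-AID libraries ranged from 2.65 to 19.1 CPM. Against RANGAP1 loss the response was higher in FOS (4.20), CCN2 (3.37), EGR1 (3.19), ANKRD1 (2.67) and GDF15 (2.38). It was lower in MRM1 (-3.19), RASSF1 (-2.88), PKDCC (-2.72), TXNIP (-2.70) and COL4A1 (-2.54), the last from counts near 0 in RANGAP1-AID cells. Without the 8 h library old2 all of these differences kept their sign and passed, from 2.53 (CYP1A1) to 4.05 (ANKRD1) and from -3.46 (RNF26) to -2.37 (BEND3P1) against NUP153 loss, and from 2.29 (GDF15) to 4.05 (FOS) and from -3.51 (MRM1) to -2.30 (TXNIP) against RANGAP1 loss.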

How the results depend on the processing

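The number of genes called after 8 h of TPR loss (709) was 1143 with library sizes alone, 1898 with DESeq2, 1866 without a filter on low counts, 182 with all 9 old libraries in 1 fit, 335 at a fold of 2, and 11 to 3805 when 1 library was left out. It was 712 to 726 with RLE, filterByExpr, a fold of 1.3 also for lower genes, DLD-1 calls kept, or mitochondrial genes left out. Without 8 h old2 (3805) it was 3777 to 3951 under RLE, library sizes alone, DESeq2 and filterByExpr, and 1283 to 4005 with another library also left out (1283 without 8 h old1, 2496 without 8 h old3 and 2417 without untreated old2). Between 8 h and 2 h, the count of 0 stayed 0 to 0 with 1 library left out and was 887 with both old2 libraries left out. Leaving out 1 library gave 718 to 4178 genes that differed from NUP153 loss and 1170 to 4228 that differed from RANGAP1 loss. For the named genes under each alternative of the 8 h comparison, no log2 fold change that passed in either fit changed sign. Sign changes of genes that passed in neither fit were not counted. Of 1719 comparisons, 312 were no longer past the threshold, 263 of them with 1 library left out. The causes were not tested.

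With a replicate block the count was 1746 (4611 without 8 h old2), 0 between the times, 1513 against NUP153 loss and 3066 against RANGAP1 loss. Residuals of the same number correlated at 0.512, 0.0899 and 0.00317 between 8 h and untreated libraries over 12189 genes. Old1 of the 8 h group alone correlated best with its own number. These residuals are deviations from a group mean that includes 8 h old2, so they cannot exclude pairing. The numbers were not taken as pairs because the study states no pairing. Depth limits genes near 1 CPM, and 3 libraries in a group limit all tests.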

Other observations

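The 2 h libraries with the old labels share their untreated libraries with the 8 h comparison, so the values of both are given side by side. FOS had a log2 fold change of 2.80 after 2 h and 2.85 after 8 h, GDF15 1.94 and 2.17, HBEGF 1.84 and 2.13, and EGR1 2.49 and 2.43. HOXA13 had -1.19 and -1.30. In the AID-TPR libraries with other replicate labels, compared with their own untreated libraries after 2 h, the values were lower in size, at 1.3 for FOS, 0.93 for GDF15, 0.68 for HBEGF, 0.76 for EGR1 and -0.54 for HOXA13. The difference between these sets of libraries was not tested here.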
